A study of Homo sapiens with 2 samples.

Results

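The hypoxia-inducible factor (HIF) pathway was examined through 10 listed genes: the HIF subunits HIF1A, EPAS1 and ARNT, the oxygen-sensing prolyl hydroxylases EGLN1, EGLN2 and EGLN3, and the targets VEGFA, CA9, ADM and LOX. Members were all probe sets that the platform annotation gives to one of these genes and to no other gene. This gave 24 probe sets for 9 of the 10 genes, out of 34880 such probe sets for 17689 genes on the array. No probe set was given to CA9, the membrane carbonic anhydrase, in the annotation used here, and CA9 was not analysed here.

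RNA was measured on Affymetrix Human Genome U133 Plus 2.0 arrays in LNCaP cells, a human prostate carcinoma line that responds to androgen. The knockdown culture (KDM4A knockdown) had received a lentiviral shRNA directed at KDM4A, an enzyme that removes methyl groups from lysines 9 and 36 of histone H3. The control culture had received virus of the pLKO.1 vector without insert. Both were harvested 3 days after infection and, per the labels, both were grown in a humidified atmosphere of air with added CO2, so that oxygen was not lowered in either. There was 1 array in each group and 1 hairpin construct, virus for both was produced in HEK293T cells, and no difference below has a replicate check or a p-value.

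HIF is a pair of proteins, an alpha subunit (HIF1A or EPAS1, also called HIF-2 alpha) and ARNT, the partner shared by both. With oxygen present the EGLN enzymes hydroxylate prolines of the alpha subunit, the VHL ubiquitin ligase binds it and the proteasome destroys it, so HIF activity is set mainly by the amount of alpha protein rather than by its mRNA. In low oxygen the stabilised pair binds a short core element beside genes of angiogenesis, pH control, matrix cross-linking and glycolysis, and EGLN1 and EGLN3 are themselves among its targets. KDM4 enzymes, like the EGLN enzymes, use oxygen, iron and 2-oxoglutarate.

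The core letters of this element, ACGTG or GCGTG, were looked up in the 250 bases before the RefSeq gene start, on both strands (where they read CACGT or CACGC). RefSeq sequence (GRCh38.p14) was matched for 9 of the 10 members, and VEGFA had no entry. The windows of the 4 measured members farthest from 0 are printed 5′ to 3′ on the gene's strand, with the core letters of either strand in capitals, because these members carry the values that follow.
LOX (chr5:122078260-122078509, minus strand): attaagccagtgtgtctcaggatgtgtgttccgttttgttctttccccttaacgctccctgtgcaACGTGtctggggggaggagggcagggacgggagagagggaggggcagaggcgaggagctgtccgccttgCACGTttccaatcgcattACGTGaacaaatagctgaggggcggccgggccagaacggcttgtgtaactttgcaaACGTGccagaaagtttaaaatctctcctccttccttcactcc
ADM (chr11:10304823-10305072, plus strand): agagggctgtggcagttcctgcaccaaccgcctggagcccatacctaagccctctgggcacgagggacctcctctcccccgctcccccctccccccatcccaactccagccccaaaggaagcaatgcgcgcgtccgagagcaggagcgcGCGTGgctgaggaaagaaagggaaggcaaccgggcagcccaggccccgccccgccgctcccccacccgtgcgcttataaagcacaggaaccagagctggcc
EGLN3 (chr14:33951075-33951324, minus strand): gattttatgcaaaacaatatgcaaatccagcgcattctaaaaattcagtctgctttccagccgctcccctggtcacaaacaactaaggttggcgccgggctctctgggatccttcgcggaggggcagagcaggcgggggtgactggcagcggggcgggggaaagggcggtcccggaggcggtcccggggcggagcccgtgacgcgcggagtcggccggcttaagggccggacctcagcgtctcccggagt
EGLN1 (chr1:231422288-231422537, minus strand): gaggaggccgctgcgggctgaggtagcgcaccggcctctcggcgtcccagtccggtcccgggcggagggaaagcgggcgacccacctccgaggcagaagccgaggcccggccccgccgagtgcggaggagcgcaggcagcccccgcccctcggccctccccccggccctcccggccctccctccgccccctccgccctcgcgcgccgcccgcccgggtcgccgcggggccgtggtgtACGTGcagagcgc
The LOX window held ACGTG or its reverse complement at 4 places, 185, 116, 98 and 42 bases before the start, the one at 116 being on the opposite strand. Among 35116 promoter windows of the same length, 18.5% held ACGTG at least once and 0.669% at 4 or more places. The cut of 4 places is the LOX count itself, so no excess is read from that share. The EGLN1 window held ACGTG once, at 13 bases before the start, and the ADM window held GCGTG once, at 101 bases. The EGLN3 and ARNT windows held neither form. Single GCGTG cores lay in the windows of HIF1A and EPAS1, and CA9 had 1 ACGTG on the opposite strand. In EGLN2 the letters of both strands formed the palindrome CACGTG, the E-box core, which 6.34% of windows held. Either form was thus found in 7 of 9 members, CA9 included and VEGFA not, against 43.2% of all windows. The windows of these members were 55.2% to 81.2% G or C, and both forms contain CG. Windows of like content were not compared, so no excess is read from this. These matches describe letters in a window and nothing about binding.

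Values below are RMA signals, taken here to be on a log2 scale because RMA works on it, and all fold values rest on this. The deposited values are centred on the mean of the 2 arrays. Each probe set thus has a knockdown value and a control value of opposite sign, and the difference is knockdown minus control. Expression levels were lost in the centring, so neither how strongly a member is expressed nor whether it was detected can be given, and members cannot be ranked by level. Each ± SD covers how far a gene's own probe sets lie apart and says nothing about cultures. A size of 2-fold or more, a log2 difference of 1, is used as a description and not as a test.

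KDM4A itself read -0.45 and -0.73 on the knockdown array in its 2 probe sets, against 0.45 and 0.73 on the control array. Its mean difference of -1.18 ± 0.40 (SD over 2 probe sets) is a 2.26-fold lower signal, and goes with the labels. Over all 17689 genes differences had a median of 0.020 and quartiles of -0.14 and 0.18. The SD among probe sets of the same gene, pooled over genes, was 0.33. Of the luminal prostate markers fixed as a check of the cell line, 6 of 8 lay above 0 (75%, against 53.7% of all genes), with a median of 0.11. None of these 8 was 2-fold apart, where 1.16% of all genes were 2-fold higher and 1.44% lower, so a count of 0 is near those shares. At 1.5-fold, 12.5% of the list was lower and 0% higher, against 4.38% and 4.3% of all genes. The presence of these markers could not be checked, since levels are not in the values.

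Of the 9 measured members, 1 was at least 2-fold lower in the knockdown and none was at least 2-fold higher. Over all genes the shares were 1.44% lower and 1.16% higher. At a size of 1.5-fold the members' counts were again 1 and 0, against 4.38% lower and 4.3% higher over all genes. Members lay on both sides, 4 above 0 and 5 below it, with a median difference of -0.074. Of their 24 probe sets, 10 lay above 0, 14 below, and 19 within 0.5 of 0. Both probe sets of LOX were past 2-fold and no other member's was, against 3.73% of all 44672 probe sets in either direction. LOX was the member past 2-fold, and the other 8 ran from -0.20 for VEGFA to 0.55 for ADM, with a median of 0.021, close to the 0.020 of all genes.

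**Figure D1:**
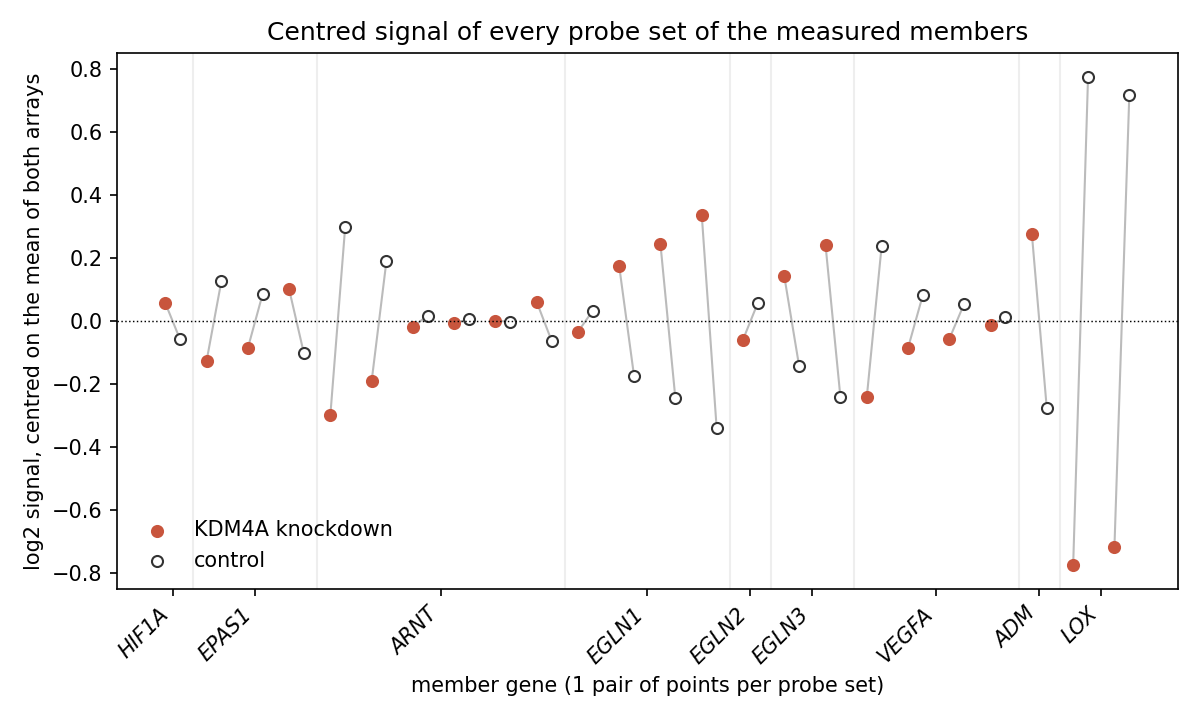
Centred log2 signal (vertical axis) of each of the 24 probe sets of the 9 measured members, grouped by gene along the horizontal axis, with the KDM4A knockdown array as filled points and the control array as open points. The 2 probe sets of LOX are the farthest apart, at -0.77 and -0.72 on the knockdown array against 0.77 and 0.72 on the control array.

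The 3 HIF subunits showed small differences that their own probe sets did not settle. HIF1A, the alpha subunit found in nearly all cells, has 1 probe set, which read 0.058 on the knockdown array and -0.058 on the control array. Its difference of 0.12 (1.08-fold) is smaller than the pooled SD between probe sets, and 62.2% of genes lay as far from 0 or farther. EPAS1, the alpha subunit first described in endothelium, read 0.10, -0.13 and -0.086 on the knockdown array in its 3 probe sets, against -0.10, 0.13 and 0.086 on the control array. These lie on both sides of 0, and the mean of -0.074 ± 0.24 (SD, 3 probe sets) is within their spread.

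ARNT, the constitutive partner, has 6 probe sets with differences from -0.60 to 0.12, of which 4 lay below 0 and 2 above. The mean was -0.15 ± 0.28 (SD, 6 probe sets) and the median -0.024. The lower values came from the 2 probe sets with names ending in _s_at, a suffix for probe sets that can match several transcripts. These read -0.30 and -0.19 on the knockdown array against 0.30 and 0.19 on the control array. The other 4 lay between -0.036 and 0.12 in difference. Without the probe sets ending in _x_at or _s_at the direction turned for ARNT (0.031, 3 probe sets) and for EPAS1 (0.016, 2 probe sets), so neither has a settled direction.

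Among the oxygen sensors, EGLN1 and EGLN3 lay above 0 and EGLN2 slightly below it. EGLN1, also called PHD2, is the main hydroxylase of HIF1A in oxygen. Its 4 probe sets read 0.34, 0.24, 0.17 and -0.034 on the knockdown array, against -0.34, -0.24, -0.17 and 0.034 on the control array. Its signal was thus higher on the knockdown array in 3 of 4 probe sets, and the mean difference was 0.36 ± 0.32 (SD, 4 probe sets), or 1.28-fold. The farthest probe set, at 0.68, ends in _x_at, a suffix for probe sets that share probes with unrelated sequences, and the mean of the other 3 was 0.26. Without _x_at and _s_at probe sets the mean over the remaining 2 was 0.21, a move of over 1.5 times.

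EGLN3 (PHD3), the sensor most strongly induced by hypoxia in many cell types, read 0.24 and 0.14 on the knockdown array in its 2 probe sets, against -0.24 and -0.14 on the control array. Both lay above 0, with a mean difference of 0.38 ± 0.14 (SD, 2 probe sets), or 1.31-fold. Both end in _s_at, so no EGLN3 value remains when such probe sets are left out. Of all genes, 9.88% lay as high or higher, against 11.0% for EGLN1. The EGLN3 difference is a little above the pooled SD of 0.33; that of EGLN1 is above it over all 4 probe sets and below it at the 0.26 and 0.21 just given.

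EGLN2 (PHD1), which is known to be induced by estrogen and not by hypoxia, has 1 probe set of its own, at -0.059 on the knockdown array and 0.059 on the control array. Its difference was -0.12. A pair of further probe sets name EGLN2 together with the read-through gene RAB4B-EGLN2, and 1 of them also RAB4B, so they are not members. They lay at 0.0011 and 0.096 in difference, and the mean over all 3 was -0.0066. No direction can be given for EGLN2 from these values.

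**Figure D2:**
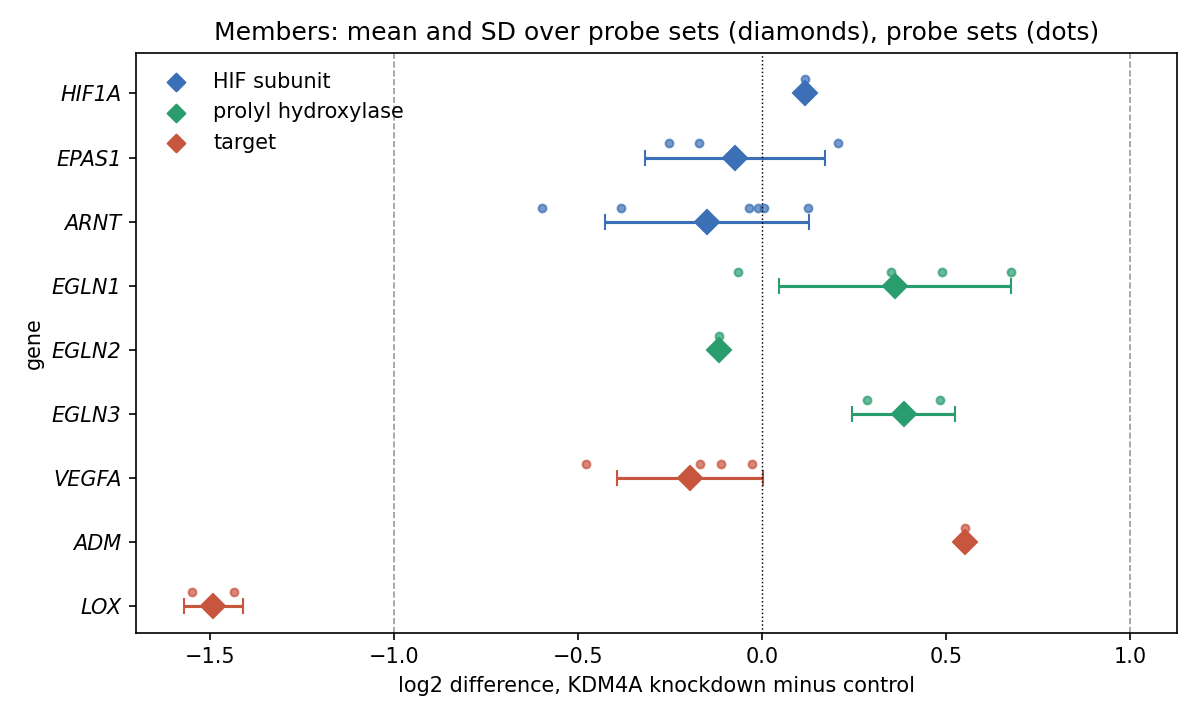
Log2 difference, KDM4A knockdown minus control (horizontal axis), for each measured member (vertical axis): diamonds are means over probe sets, bars the SD over probe sets where there are 2 or more, and dots the probe sets; dashed lines mark 2-fold. LOX alone lies past 2-fold, at -1.49, while EGLN1, EGLN3 and ADM lie between 0.36 and 0.55.

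The 3 measured targets differed in opposite directions. LOX, the secreted copper enzyme that cross-links collagen and elastin, read -0.77 and -0.72 on the knockdown array in its 2 probe sets, against 0.77 and 0.72 on the control array. Both probe sets are lower on the knockdown array and lie close together, by 2.93-fold and 2.70-fold. The mean difference was -1.49 ± 0.081 (SD, 2 probe sets), or 2.81-fold, and 91 of 17689 genes (0.514%) lay as low or lower, LOX included. Both probe sets end in _s_at, so no LOX value remains when such probe sets are left out. The gap from LOX to VEGFA, the next member, was 1.30 on the log2 scale, and their probe sets did not overlap.

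SRFBP1, a cofactor of serum response factor whose gene overlaps LOX in the RefSeq annotation, lay at -0.068 in its 1 probe set. It was named after its value was seen, because of this overlap. Markers of fibroblasts and smooth muscle, cell types that make much LOX, had a median difference of 0.060 over 9 measured genes. Of these 6 lay above 0 and 3 below, from FAP at -0.29 to ACTA2 at 2.14 ± 2.42 (SD, 2 probe sets). COL1A1 lay at 0.73 ± 0.76 (SD, 4 probe sets) and COL3A1 at 0.63 ± 0.68 (SD, 3 probe sets), each mean within the spread of its probe sets. None of these 9 was 2-fold lower on the knockdown array, against 1.44% of all genes, so a count of 0 is near that share. ACTA2 was 2-fold higher, 1 of 9 (11.1%, against 1.16% of all genes), but its 2 probe sets lay far apart, at 0.43 and 3.85. At 1.5-fold, 33.3% of the list was higher and 0% lower, against 4.3% and 4.38% of all genes. The levels of these markers cannot be given.

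ADM, which encodes the vasodilator peptide adrenomedullin, has 1 probe set, at 0.28 on the knockdown array and -0.28 on the control array. Its difference of 0.55 (1.47-fold) was the highest of the members, and 4.81% of genes lay as high or higher. No second probe set bears on it.

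VEGFA, the main angiogenic growth factor, lay below 0 in all 4 probe sets. They read -0.24, -0.084, -0.056 and -0.013 on the knockdown array, against 0.24, 0.084, 0.056 and 0.013 on the control array. The mean difference was -0.20 ± 0.20 (SD, 4 probe sets), or 1.15-fold lower, and 19.4% of genes lay as low or lower. The value rests largely on 1 probe set, which read 1.40-fold lower, while the next was 1.12-fold lower and the other 2 were nearer to 0. All 4 end in _s_at or _x_at, so no VEGFA value remains when both kinds are left out.

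**Figure D3:**
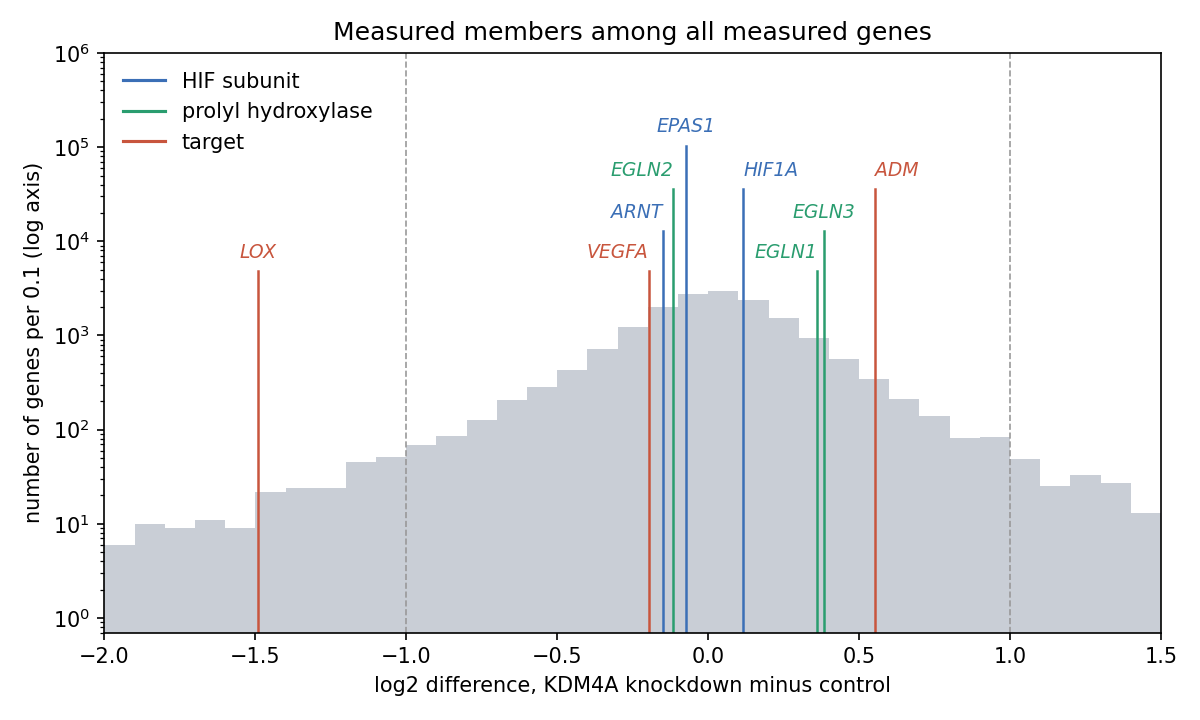
Number of genes per 0.1 of log2 difference (log vertical axis) against the log2 difference, KDM4A knockdown minus control, drawn from -2 to 1.5, which leaves 102 of 17689 genes outside; coloured lines mark the 9 measured members and dashed lines 2-fold. LOX stands in the lower tail at -1.49, and the other 8 members lie between -0.20 and 0.55.

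In order of difference the members ran LOX, VEGFA, ARNT, EGLN2, EPAS1, HIF1A, EGLN1, EGLN3 and ADM. Except for the step from LOX to VEGFA, no step between neighbours exceeded the pooled SD of 0.33. Probe set ranges overlapped at each of these smaller steps except that from EGLN3 to ADM, where the gap was 0.17. Of the 6 members with 2 or more probe sets, 3 (EGLN3, VEGFA and LOX) had all of them on the same side of 0, against 50.3% of 8944 such genes on the array.

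Other genes of the pathway were described through 7 lists, of which 108 of 116 genes were measured. Of these, 67 lay above 0 (62.0%, against 53.7% of all genes). The 2-fold size was reached upward by 2 (1.85%, against 1.16% of all genes) and downward by 1 (0.926%, against 1.44%), shares near those of all genes. For factors that control HIF the median was 0.041; 10 of 17 lay above 0 and none was 2-fold apart. The members farthest from 0 included HIF1AN, the asparaginyl hydroxylase also called FIH, at 0.74 ± 0.28 (SD, 3 probe sets), with all 3 probe sets above 0. CITED2, which competes with HIF for its coactivators, lay at 0.44 ± 0.27 (SD, 3 probe sets). SIAH2 and SIAH1, ubiquitin ligases that act on EGLN proteins, lay at -0.64 (1 probe set) and -0.50 ± 0.26 (SD, 3 probe sets), all of them below 0. VHL, the recognition subunit for hydroxylated HIF, lay at 0.30 in its 1 probe set; it was named after its value was seen.

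Among the relatives and partners of the targets only CA11 was 2-fold apart. Few genes are, since 1.16% of all genes were 2-fold higher and 1.44% lower. In the VEGF family and its receptors, 2 of 7 lay above 0 and the median was -0.048. VEGFB lay at -0.33 (1 probe set), the co-receptor NRP1 at -0.30 ± 0.088 (SD, 4 probe sets), FLT4 at -0.11 and FLT1 at 0.14. The adrenomedullin receptor and processing genes had a median of 0.072 over 6 genes, and of 0.22 over 5 without _x_at and _s_at probe sets. They ran from RAMP2 at -0.17 to RAMP3 at 0.35. CALCRL, the receptor that the RAMP proteins accompany, lay at 0.18 and RAMP1 at 0.26.

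The other genes of the lysyl oxidase family and of collagen modification had a median of 0.045. Of 12 measured, 8 lay above 0 (66.7%, against 53.7% of all genes), and the lowest was at -0.11. None was 2-fold apart, but few genes are: 1.44% of all genes were 2-fold lower and 1.16% higher. A count of 0 among 12 is thus near those shares. PLOD2, a collagen lysyl hydroxylase induced by hypoxia, lay at 0.48 ± 0.59 (SD, 2 probe sets), LOXL1 at 0.46 (1 probe set), P4HA1, a collagen prolyl hydroxylase subunit, at 0.38 (1 probe set) and LOXL3 at 0.13 (1 probe set). Whether LOX differs from its family beyond the spread between cultures was not tested, since there was 1 array in each group.

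Among 12 other carbonic anhydrases, 9 lay above 0 and the median was 0.051. CA11, a relative without enzymatic activity, was 2.02-fold higher in its 1 probe set (1.02), while CA5B lay at -0.21, CA8 at 0.12 and CA6 at 0.0996.

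A further 36 measured genes that hypoxia induces outside glycolysis lay on both sides, 21 above 0 and 15 below, with a median of 0.10. VLDLR, a lipoprotein receptor, was 2.34-fold higher in its 1 probe set (1.22). TFRC, the transferrin receptor, was 2.44-fold lower (-1.29 ± 0.80, SD over 4 probe sets), with probe sets from -1.94 to -0.20. STC2, a secreted glycoprotein, lay at -0.96 ± 0.44 (SD, 2 probe sets) and NARF at 0.66 ± 0.32 (SD, 2 probe sets). Of the 18 measured glycolytic targets none was 2-fold apart, where 1.16% of all genes were 2-fold higher and 1.44% lower. They had 14 above 0 and a median of 0.25. This median was 0.16 over 10 genes without _x_at and _s_at probe sets, and 0.093 over the 11 genes with at least 2 probe sets. PFKFB4 lay at 0.98 (2 probe sets), and HK1 at 0.75, ENO2 at 0.54 and PFKFB3 at 0.52 rest on 1 probe set each.

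**Figure D4:**
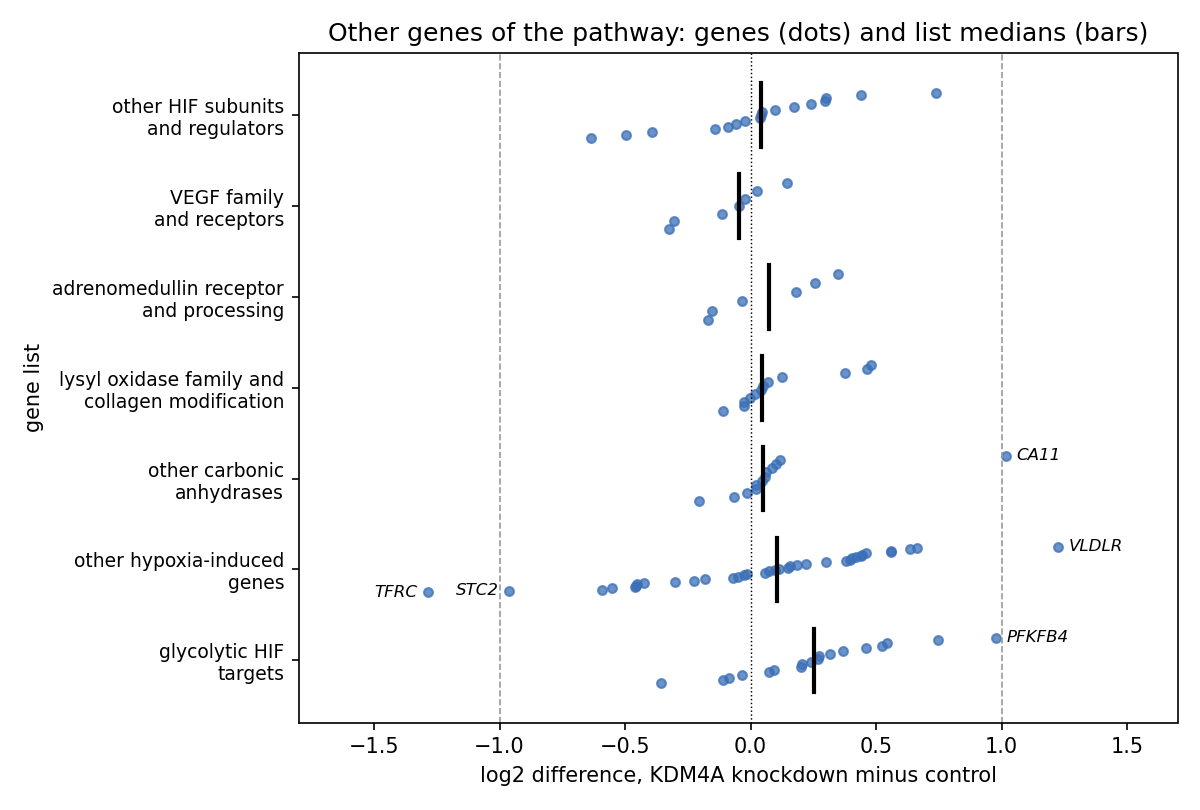
Log2 difference, KDM4A knockdown minus control (horizontal axis), of each measured gene (dots) in 7 lists of other HIF pathway genes (vertical axis), with list medians as bars and 2-fold as dashed lines; genes within 0.9 of 0 carry no name. List medians lie between -0.048 and 0.25, and TFRC, CA11 and VLDLR are past 2-fold.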

How the data were processed

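The deposited file holds values on a log2 scale for 44672 probe sets on 2 arrays. The authors normalised them with RMA, per the submitters' processing notes, which give no version. In every row the 2 arrays summed to 0 within 1e-06, so the values had been centred on their mean. What log base, centring and earlier filter were used is not given in the sources; base 2 was taken because RMA works on it. The array values come with no genome build.

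From these values the difference, knockdown minus control, was computed per probe set. Genes were named through the platform annotation, updated by Entrez identifier to RefSeq symbols (GRCh38.p14), and averaged over their probe sets. Another 1619 probe sets named several genes, 8131 were unnamed here and 42 were controls. No filter was applied. The 10 members and all lists were chosen with earlier results of these data known. Text names all members, KDM4A and up to 4 genes per list farthest from 0, beside genes marked as chosen later; the 4 marker lists covered luminal prostate, endothelium, fibroblast and smooth muscle, and leukocyte genes. Genes of like pattern were not sought, since 2 arrays give each gene the same or the opposite pattern. Alternatives were medians over probe sets, leaving out probe sets with the suffix _x_at or _s_at, subtracting the overall median, 1.5-fold and 3-fold rules, and genes with 2 or more probe sets. Leaving out _x_at alone and adding the shared EGLN2 probe sets were chosen after seeing the data. The number of arrays limits precision. Python 3.11.15, numpy 2.4.6, pandas 2.3.3 and matplotlib 3.10.9 were used.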

Additional observations from a re-analysis of the deposited data

How the results depend on the processing

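No paired analysis was possible because each group has 1 array. Of 33 member values under an alternative, 13 equal the reported value by construction, 9 only carry the shift of 0.014 from subtracting the overall median, and 11 were recomputed. Those were EPAS1 at -0.17 with the median over probe sets and 0.016 without probe sets ending in _x_at or _s_at, ARNT at -0.024 and 0.031, and EGLN1 at 0.42 and 0.21. Without _x_at alone ARNT was at -0.18, EGLN1 at 0.26 and VEGFA at -0.25, the VEGFA median was -0.14, and EGLN2 with its shared probe sets was at -0.0066. Leaving out both suffixes leaves 5 members, with no value for EGLN2, EGLN3, VEGFA or LOX. The count of members at least 2-fold lower is then 0, as LOX is not among them. This count is also 0 with a 3-fold rule. No member was 2-fold higher under any setting, and none was 1.5-fold higher. The 205 higher and 255 lower genes became 760 and 774 with a 1.5-fold rule, 45 and 81 with a 3-fold rule, and 80 and 140 over the 8944 genes that have at least 2 probe sets. Over the 7 pathway lists, the 2 higher genes and 1 lower gene became 7 and 4 at 1.5-fold, which is 6.48% and 3.70% against 4.3% and 4.38% of all genes, and 0 and 0 at 3-fold, where fewer genes can pass. Higher genes of the lists numbered 1 of 76 without probe sets ending in _x_at or _s_at, and 0 of 67 with 2 or more probe sets. The median of the adrenomedullin list was 0.22 over 5 genes without probe sets ending in _x_at or _s_at. That of the glycolytic targets was 0.16 over 10 genes under the same setting and 0.093 over 11 genes with 2 or more probe sets. The cause of these shifts in list medians was not tested. Array signal over background is not in the values, so the precision of dim probe sets is unknown.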

Other observations

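Many probe sets carry exactly the same deposited value. Of 44672 probe sets, 18003 (40.3%) have a knockdown value identical in every printed digit to that of another probe set, and up to 23 share 1 value. Among probe sets 2-fold or more apart the share was 2.28%, against 41.8% of those less far apart. Of the 24 member probe sets, 10 share their value, which is 41.7%. The 1 probe set of EGLN2 shares it with others (6 probe sets in all), and 1 EPAS1 probe set belongs to a set of 10 and another to a set of 6. Most ARNT probe sets share theirs as well, in sets of 7, 4, 2 and 2. Both EGLN3 probe sets and that of ADM share their values too, in sets of 2 or 3. The probe sets of LOX, VEGFA, EGLN1, HIF1A and KDM4A have values found nowhere else in the file. The cause of the shared values was not tested.

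The other marker lists had medians near 0. Endothelial markers, the class in which EPAS1 and the VEGF receptors are usually high, had a median of -0.034 over 8 genes, with EMCN at 0.94, ESAM at 0.35, TEK at -0.17 and VWF at 0.13. Leukocyte markers had a median of -0.019 over 4 genes, with CD3D at 0.24, NKG7 at -0.14, CD79A at -0.050 and CD14 at 0.012. Among the luminal markers, TMPRSS2 lay at -0.76, FOLH1 at 0.48, KRT8 at 0.41 and KLK2 at 0.39.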
